A study of Bos taurus with 6 samples.

Results

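Single-coding-exon copies were gene entries whose longest coding sequence in the deposited annotation formed 1 uninterrupted block, while another entry with the same gene symbol had a coding sequence of 3 or more blocks. Touching blocks were merged before they were counted. The rule found 510 copies of 290 symbols among the 20707 entries of the expression table, where 5199 entries of 1827 symbols shared a symbol with another entry. Each copy was set beside the entry of its symbol with the most coding blocks, called its multi-exon gene here. The table does not say which of the 2 entries was copied from the other, and it does not say that the multi-exon gene was the source of the copy.

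A messenger RNA that has lost its introns can be reverse transcribed by the enzymes of LINE-1 elements and inserted elsewhere in the genome. Such a retrocopy has the coding sequence of its source in 1 piece and usually lies on another chromosome. Most retrocopies lack a promoter and decay, and some are transcribed from elements near the insertion site and keep a reading frame. Genes with abundant mRNA in the germ line, ribosomal protein genes among them, have left many of these copies in mammalian genomes. A coding sequence in 1 block can also have other origins: olfactory receptors, histones and some other genes have no coding introns at all, and a short fragment of a gene may be annotated as a gene of its own.

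The study measured RNA of single oocytes of Bos taurus, collected from abattoir ovaries. Germinal vesicle (GV) oocytes, arrested in meiotic prophase, were taken at aspiration of the follicles, and metaphase II (MII) oocytes after 24 h of maturation in vitro. The table has 3 columns for each stage, named GV14, GV14c and GV15, and MII14c, MII15 and MII15c. Values are RPKM, reads per kilobase of gene model scaled to mapped reads, as deposited. The cDNA was made and amplified with the SMARTer kit, which primes on poly(A), so transcript number and capture of the poly(A) tail both enter a level. No sample title reads GV14c or MII15c, and the titles GV15c and MII14 have no column, so those 2 columns, called untitled here, carry no label beyond the stage. One label calls every sample matured in vitro, and the stage was taken from another. Whether the oocytes came from separate animals is not stated, so each p-value reflects only how far these libraries spread, which may be technical. Adapters were diluted 1:30 for GV14, 1:10 for GV15 and 1:50 for MII14c and MII15, which cannot be told apart from stage.

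Depths recovered from low values were 20.29 to 30.0 M reads in GV and 21.38 to 32.63 M reads in MII. Of 18 oocyte markers, 16 were in the table and each had a mean of at least 1 RPKM, with a summed level of 17258 to 21995 RPKM in GV and 19002 to 31194 RPKM in MII. Of 18 markers of cumulus and granulosa cells, 17 were in the table, 4 reached 1 RPKM (HAS2, STAR, VCAN and SERPINE2) and 4 were at 0 (PTX3, LHCGR, AMHR2 and NR5A1). Their sum was 95.0 to 167 RPKM in GV and 106 to 115 RPKM in MII. Single markers moved apart without overlap of the stages: HAS2 had 11.6 to 18.9 RPKM in GV and 55.4 to 64.8 RPKM in MII, VCAN 2.35 to 3.89 and 7.21 to 9.50 RPKM, and STAR 67.1 to 136 and 29.3 to 39.7 RPKM. Their part in the results was not tested. Of 3 blood markers, 2 were in the table and none reached 1 RPKM.

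Most copies lay apart from their multi-exon gene. Of the 510, 345 were on another chromosome, 49 were on the same chromosome more than 1 Mb away and 116 were within 1 Mb. The X chromosome held 49 copies, 9.61% of them, against 4.14% of all 19861 coding entries. Kinds of gene were uneven in this: all 9 copies of the symbol MAGEB3 were on X, and 6 of the 72 ribosomal copies. Coding length ran from 99 to 3615 nt with a median of 792 nt. It was 80 to 120% of the length of the multi-exon gene in 399 copies, under 30% in 39, between 30 and 80% in 38 and over 120% in 34, and 97 copies had exactly the same length. The annotation gave no gene name of its own to 375 copies. In 150 copies the multi-exon gene had exactly 3 blocks, the fewest that the rule admits. Just outside the rule were 82 entries of the same symbols with 2 blocks, 51 of them at 0 in every library, and 268 entries with 1 block whose symbol had no entry above 2 blocks, 183 of them at 0.

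The symbols fell into a few large groups. Olfactory receptors and other chemosensory receptors, a group formed after their values were seen, made up 166 copies of 51 symbols. Proteins of the cytosolic ribosome made up 72 copies of 40 symbols, all 72 on another chromosome than the multi-exon gene and 39 with exactly its coding length. Chromatin and nuclear proteins gave 27 copies, 16 of them under the histone symbol HIST1H2BO. The MAGE family, X-linked for the most part and known for expression in germ cells and tumours, gave 21 and was also grouped after its values were seen. Subunits of the respiratory chain and ATP synthase gave 8 copies, RNA binding and splicing proteins 7, chaperones 5, and cell cycle proteins, translation factors, cytoskeletal proteins and the proteasome and ubiquitin group 4 each. Glycolytic enzymes gave none, the mitochondrial ribosome gave 1, and 187 copies belonged to symbols outside these groups.

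Many copies gave no signal. In all 6 libraries 241 copies, 47.3%, were listed at 0 RPKM, and a further 169 had a mean above 0 and under 1 RPKM. The remaining 100, of 87 symbols, had a mean of at least 1 RPKM and were tested for a difference between the stages. The tested share was 19.6% of the copies, 18.7% of the other 1876 entries with 1 coding block, 56.2% of the 290 multi-exon genes and 42.6% of all coding entries. The share at 0 was 52.9%, 22.8% and 22.2% in the last 3 of these groups. At the median coding length, 3 reads, the upper limit that a count of 0 allows, came to 0.116 to 0.187 RPKM across the libraries, counting error only.

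The share of copies at 0 differed widely between kinds of gene. Of the receptor copies, 135 of 166 were at 0 and 1 reached the tested level, whereas 6 of 72 ribosomal copies were at 0 and 28 were tested. Position was described without the receptors, which made up 74 of the 116 copies within 1 Mb: 78 of 275 copies on another chromosome were at 0 and 80 were tested, and 15 of 42 copies within 1 Mb were at 0 and 11 were tested, and the difference between these shares was not tested. Among copies outside the receptors with exactly the coding length of the multi-exon gene, 9 of 88 were at 0 and 31 were tested. Of all 344 copies outside the receptors, 106 were at 0 and 99 were tested. Ribosomal copies made up 39 of those 88, so equal length and kind of gene were not separated here. Counts of copies at 1 RPKM or more were 101, 117 and 100 in GV14, GV14c and GV15 and 80, 81 and 81 in MII14c, MII15 and MII15c. Every GV library was above every MII library, with an exact two-sided permutation p of 0.1, the smallest that 3 against 3 libraries allow. All coding entries had the same order, with 8631, 9090 and 8187 entries at this level in GV and 7922, 7023 and 7604 in MII, so the order was not particular to the copies.

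**Figure D1:**
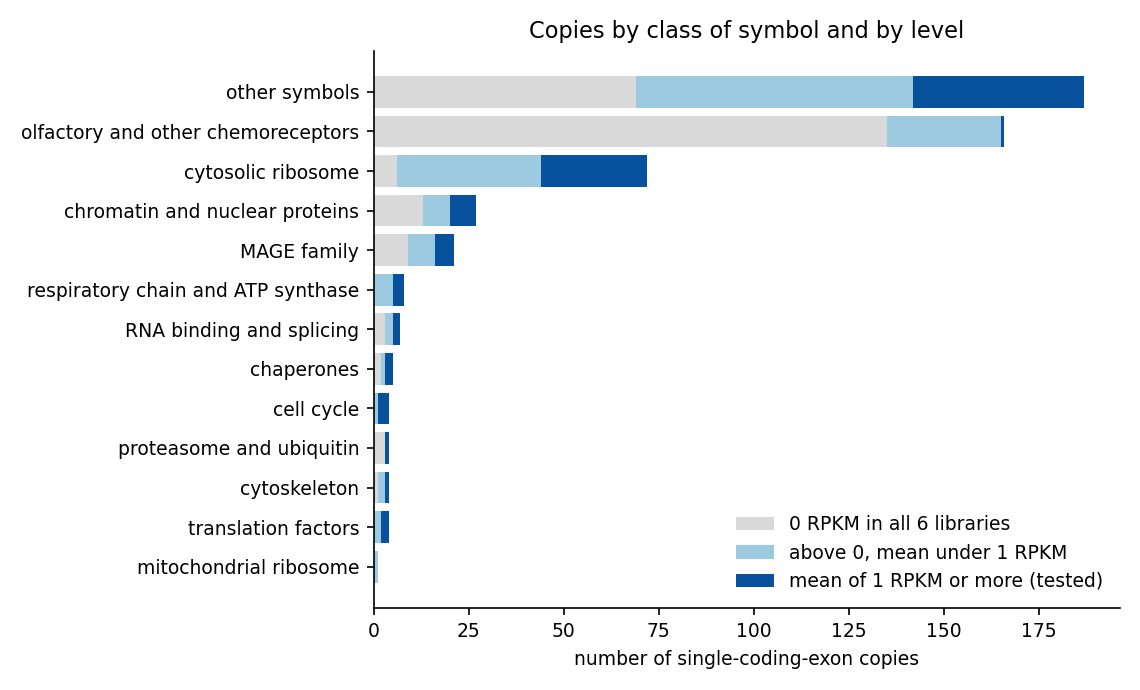
Copies by class of symbol. Each bar is a class, its length the number of copies, split into copies at 0 RPKM in all 6 libraries, copies above 0 with a mean under 1 RPKM, and copies with a mean of 1 RPKM or more. Receptor copies are nearly all in the grey segment (135 of 166), and the ribosomal copies are mostly outside it (6 of 72 at 0).

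The gene models behind the values were partly built from reads. The coding sequence was the whole model in 291 copies, of which 225 were at 0, and 98 of the 100 tested copies had a model longer than the coding sequence. This is not independent of level, since the annotation was extended by transcript discovery. Notes in the annotation count supporting reads over libraries that are not named, and for 26 of the tested copies at least 1 supporting read was spliced. Model spans of tested copies had a median of 1585 nt, and 24 were longer than 10 kb, so a coding sequence in 1 block did not always mean a transcript in 1 exon. The coding sequence of 12 tested copies overlapped another gene model, 4 times on the same strand and 8 times on the other, and no source used here states that strand was recorded. Reads were 50 nt and single, and how reads that match several near-identical copies were assigned is not given in the sources used here, so low values of a copy beside a highly expressed multi-exon gene are uncertain.

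Where both entries were tested, the copy was usually below its multi-exon gene. In 79 pairs, of 68 symbols, both entries were tested, and the copy was lower in 65 and higher in 14. The median difference of log2(RPKM + 1), copy minus multi-exon gene, was -3.03, with a range from -9.49 to 8.91. The copy had under 10% of the mean RPKM of the multi-exon gene in 38 pairs, including 11 under 1%, and between 10% and equality in 27. In the other 21 tested copies the multi-exon gene was below 1 RPKM, and in 8 of these it was at 0. In all, 35 tested copies were above their multi-exon gene and 28 were the highest entry of their symbol. Multi-exon here means only 3 or more coding blocks, and some blocks lay close together. The YWHAH entry had 4 blocks with 585 coding nt within chr1:114718440-114719062. The RRAGA entry had 3 blocks with 804 coding nt within chr8:72265979-72266893. Merging blocks under 20 nt apart left 468 of the 510 copies, of which 94 were tested.

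**Figure D2:**
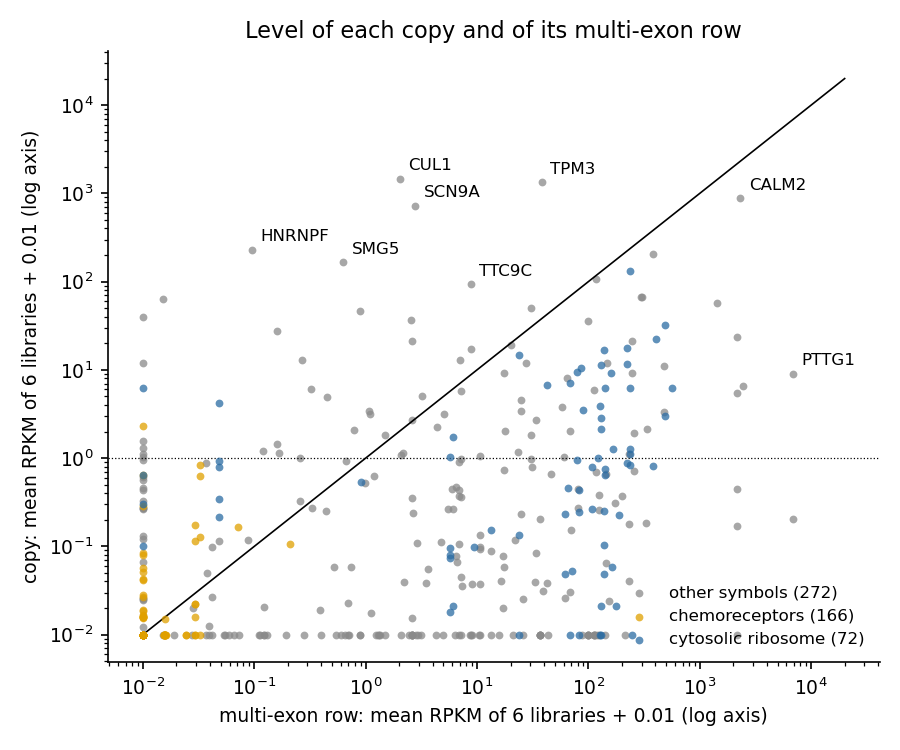
Mean level of each of the 510 copies against its multi-exon gene. Both axes are the mean RPKM of 6 libraries plus 0.01 on a log scale, the diagonal marks equal levels and the dotted line marks 1 RPKM. Blue points are ribosomal copies, yellow points receptor copies and grey points all others; CUL1, SCN9A, HNRNPF and SMG5 lie far above the diagonal and most ribosomal copies far below it.

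A few copies were among the strongly expressed entries of the oocyte. The mean was at least 10 RPKM in 39 copies and at least 100 RPKM in 9. The highest was the copy of CUL1, the cullin that scaffolds SCF ubiquitin ligases, at chr4:41064513-41066816 (ENSBTAG00000047294, plus strand, 2304 coding nt, in coordinates of the deposited annotation, whose build is not given in the sources used here). It had 1065, 647 and 1142 RPKM in GV14, GV14c and GV15 and 1758, 2165 and 2007 RPKM in MII14c, MII15 and MII15c. The CUL1 entry with 21 coding blocks, also on chromosome 4 at chr4:112756838-112809708 and 2331 nt long, had 1.78, 1.04 and 2.40 RPKM in GV and 4.09, 0.393 and 2.50 RPKM in MII. The copy was far above the 21-block entry in every library, and its stages did not overlap. Its gene model spans 57459 nt and has 208 spliced supporting reads.

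SMG5, a factor of nonsense-mediated mRNA decay, showed the same order of levels. Its copy at chr14:56787218-56790187 (ENSBTAG00000021747, minus strand, 2970 coding nt, 97.3% of the multi-exon length) had 84.6, 128 and 70.3 RPKM in GV and 235, 197 and 290 RPKM in MII. The 22-block SMG5 gene on chromosome 3 had 1.06, 1.15 and 0.23 RPKM in GV and 0.683, 0.021 and 0.551 RPKM in MII. The copy was above the multi-exon gene in all 6 libraries, and every MII library was above every GV library.

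HNRNPF, a splicing regulator, is known to have its coding sequence in 1 exon, and here the 1-block entry at chr28:13902929-13904173 bears the annotation name HNRPF_BOVIN. Its values were 138, 158 and 150 RPKM in GV and 263, 371 and 301 RPKM in MII, against 0 to 0.18 RPKM for the 4-block entry on the X chromosome. RRAGA, a small GTPase of nutrient signalling named after its values were seen, has the same order: the 1-block entry on chromosome 8 is named RRAGA_BOVIN and had a mean of 27.9 RPKM, and the multi-exon entry 0.149 RPKM. For these symbols the 1-block entry is the named gene, and the word copy describes only the structure of the annotation.

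SCN9A, the symbol of a voltage-gated sodium channel, had a 1-block entry of 414 nt at chrX:47650081-47650494, 6.94% of the length of the 26-block gene on chromosome 2. It had 498, 561 and 511 RPKM in GV and 666, 1074 and 1051 RPKM in MII, whereas the channel gene itself had 1.66 to 2.18 RPKM in GV and 2.10 to 5.39 RPKM in MII. Every MII value of the short entry was above every GV value.

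TPM3, a tropomyosin of the actin cytoskeleton, had a copy at chr6:20415893-20416639 with 1726, 2139 and 724 RPKM in GV and 1675, 330 and 1421 RPKM in MII. Its 10-block gene on chromosome 3 had 34.8 to 52.4 RPKM in GV and 24.9 to 39.8 RPKM in MII. The stages of the copy overlapped, and GV15 and MII15 were the lowest of their stage. CALM2, which encodes the calcium sensor calmodulin, had a copy at chr20:8066408-8066857 with 860, 750 and 856 RPKM in GV and 691, 1064 and 1034 RPKM in MII, below its multi-exon gene in every library (1816 to 2312 RPKM in GV and 2026 to 3067 RPKM in MII).

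SERF2 on chromosome 8 (180 nt) had 263, 207 and 136 RPKM in GV and 237, 157 and 242 RPKM in MII. ATP5L, subunit g of ATP synthase, had a copy at chr14:45039060-45039371 with 106, 123 and 115 RPKM in GV and 87.8, 124 and 79.2 RPKM in MII, at 90.3% of the mean of its 3-block gene. Neither copy passed the stage test, and their stages overlapped. TTC9C, a tetratricopeptide protein, had a copy at chr3:77154431-77154946 with 74.2, 70.05 and 65.9 RPKM in GV and 129, 128 and 94.6 RPKM in MII, above its 3-block gene of equal coding length (2.98, 3.29 and 4.40 RPKM, then 16.8, 10.4 and 15.1 RPKM).

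Changes between the stages were tested with limma on log2(RPKM + 1), MII minus GV, over all 8671 entries whose mean reached 1 RPKM, and p-values were adjusted by the Benjamini-Hochberg method, with 0.05 as the threshold. This scale understates changes of low entries, and a change is relative to the mapped reads of a library. Of the 100 tested copies, 35 fell and 12 rose, against 26.9% lower and 13.4% higher among all tested entries; the remaining 53 did not pass. In either direction 47 copies were called, against 40.3% of all tested entries. When MII15c was left out 22 fell and 31 were called in all. With both untitled columns left out 18 fell and 5 rose. After quantile normalization 24 fell and 17 rose. The stages did not overlap, with MII lower, in 37 tested copies (32.1% of all tested entries), and with MII higher in 14 (19.8%). The median log2 change was -0.33 in the tested copies, -0.61 in the 163 tested multi-exon genes and -0.16 in all tested entries, and for all entries other scalings moved it to 0.05 (median-ratio), 0.19 (quantile) and -0.07 (TPM). The tested copies cover 87 symbols and the 163 genes come from all 290 symbols, so these medians describe unlike sets.

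Rises were found mainly in copies that were the highest entry of their symbol. That held for 9 of the 12 copies that rose and for 1 of the 35 that fell, YWHAH; the difference between these shares was not tested. SMG5 rose by 1.37 ± 0.27 on the log2 scale (SE; limma adjusted p = 0.00385), with means of 94.4 ± 30.2 RPKM in GV and 240.5 ± 47.0 RPKM in MII (SD, n = 3). CUL1 rose by 1.09 ± 0.26 (limma adjusted p = 0.00892), from 951 ± 267 to 1976 ± 205 RPKM; the call was lost with both untitled columns left out (0.82; 0.0968). HNRNPF rose by 1.05 ± 0.20 (limma adjusted p = 0.00373), its means being 149 ± 10.2 and 312 ± 54.9 RPKM.

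The short SCN9A entry rose by 0.80 ± 0.23 on the log2 scale (limma adjusted p = 0.0237), with means of 523 ± 33.5 RPKM in GV and 930.4 ± 229 RPKM in MII. TTC9C rose by 0.72 ± 0.21 (0.023), with means of 70.05 ± 4.16 and 117 ± 19.6 RPKM. The first call was lost without GV14, GV15, MII15 or MII15c (limma adjusted p = 0.0724, 0.0654, 0.0581 and 0.103), the second without GV14, GV15 or MII14c (0.0538, 0.0766 and 0.0673). Both calls were also lost with both untitled columns left out. Outside the rule for naming copies, and taken after their values were seen, a 135-nt entry of LRP1B on chromosome 2 rose from 44.8 ± 5.44 to 82.8 ± 8.09 RPKM and MAGEB16 on the X chromosome from 31.2 ± 7.96 to 60.7 ± 11.1 RPKM, with multi-exon genes at means of 0.00517 and 0.875 RPKM.

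YAP1, the transcriptional coactivator of the Hippo pathway, had a 174-nt entry at chr15:6884314-6884487, 66773 nt from the 7-block gene. It had 6.96, 4.69 and 4.68 RPKM in GV and 23.5, 19.8 and 18.8 RPKM in MII (log2 change 1.77 ± 0.27; limma adjusted p = 0.00124), while the 7-block entry stayed at or below 0.5 RPKM. Its deposited gene model spans 136242 nt and reaches across the coding span of the 7-block entry on the same strand, as the models of 3 tested copies did, so these 2 entries share a locus. OR5W2, an olfactory receptor symbol, had 7 copies, 6 of them at 0; the seventh, at chr15:79697098-79698027, had 0.943, 0.947 and 0.27 RPKM in GV and 2.75, 6.03 and 2.94 RPKM in MII (1.48 ± 0.37; limma adjusted p = 0.0117). It was the one receptor copy that reached the tested level. With means of 0.72 RPKM in GV and 3.91 RPKM in MII, it passed the filter through MII alone. Its rise is therefore not independent of the filter. The call was lost with both untitled columns left out (limma adjusted p = 0.0557).

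Where the multi-exon gene was the main entry and rose, some low copies rose as well and others did not pass. Copies of SKP1, HMGB2 and RAP2B, named after their values were seen, did not pass (limma adjusted p = 0.321, 0.0608 and 0.588). Their log2 changes were 0.38, 1.35 and -0.23, beside 0.65, 0.92 and 0.80 in their multi-exon genes. For RAP2B the 1-block entry (552 coding nt) bears the annotation name A4IFU2_BOVIN, and the 6-block entry (930 coding nt) bears none. There the words copy and multi-exon gene describe only the structure of the annotation. WTAP, a subunit of the mRNA m6A methyltransferase, had a copy of 453 nt at chr23:30238174-30238626, 38.0% of the coding length, with 2.62, 2.40 and 2.77 RPKM in GV and 11.2, 37.3 and 14.7 RPKM in MII. Its log2 change was 2.43 ± 0.42 (limma adjusted p = 0.00217), beside 1.39 ± 0.20 for the 7-block gene (80.3 ± 10.1 to 212 ± 19.2 RPKM), and the difference of 1.04 ± 0.43 did not pass the test of pairs (limma adjusted p = 0.188). SERINC1, a membrane protein linked to serine incorporation into lipids, had a copy at chr7:14947960-14949330 with 3.54, 3.48 and 3.09 RPKM in GV and 8.49, 8.65 and 8.36 RPKM in MII. The copy changed by 1.12 ± 0.27 and the 11-block gene by 1.19 ± 0.19, a difference of -0.07 ± 0.10 (SE) on the log2 scale. The call of the SERINC1 copy (limma adjusted p = 0.0106) was lost with both untitled columns left out (0.0865).

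PTTG1, the securin that holds separase inactive until anaphase, had a copy of the same 609 coding nt at chr7:29648292-29648900. It had 3.53, 6.18 and 5.48 RPKM in GV and 9.71, 18.1 and 11.3 RPKM in MII, 0.133% of the level of the 5-block gene on the same chromosome, at 4825 ± 886 and 8804 ± 1460 RPKM (SD, n = 3). Both entries rose (log2 change 1.19 ± 0.33 for the copy and 0.87 ± 0.24 for the gene), and the call of the copy was lost without GV14 or MII15c (limma adjusted p = 0.0788 and 0.0536). A level so far below that of a gene of equal coding length may hold shared reads, which was not tested, and sequence identity was not computed.

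**Figure D3:**
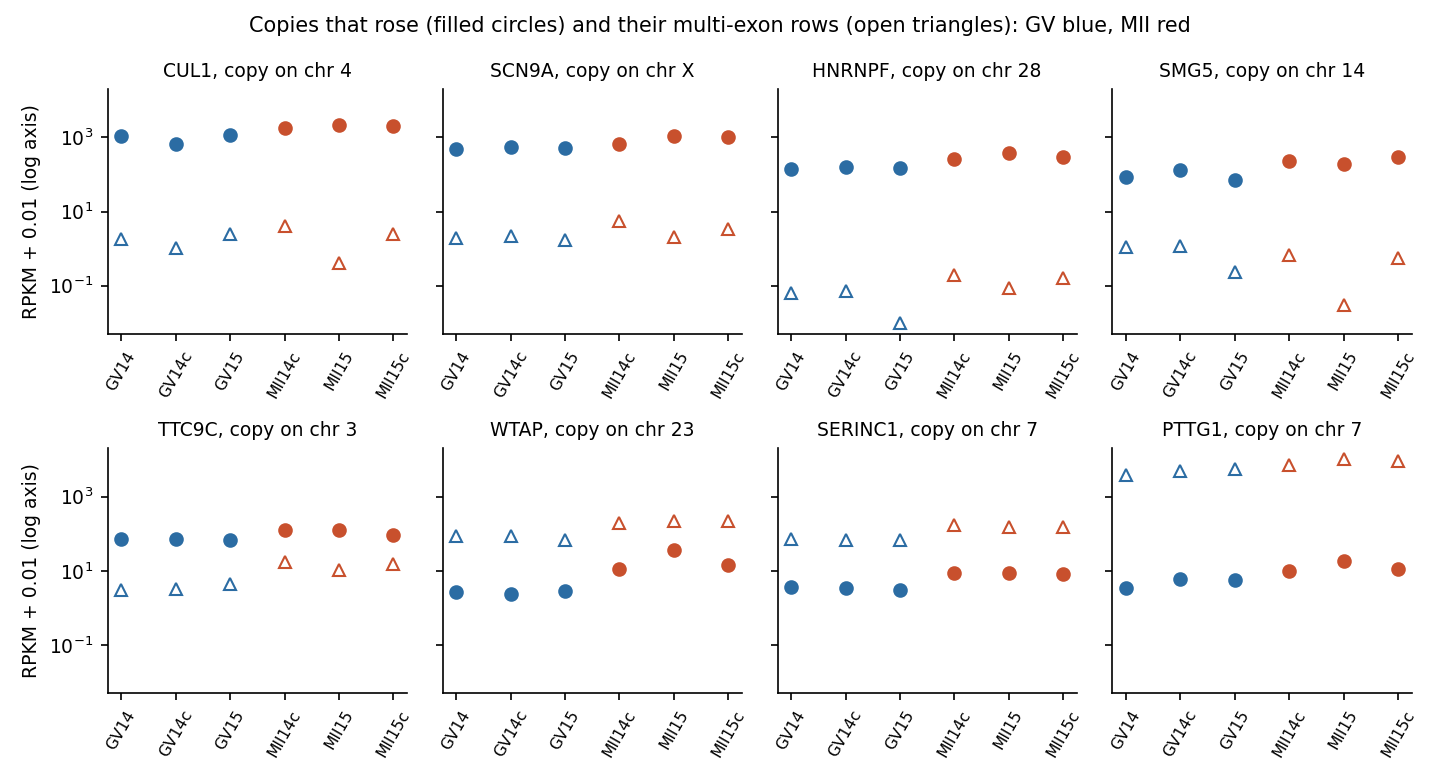
Copies that rose and their multi-exon genes by library. Each panel is a symbol; filled circles are the copy and open triangles the multi-exon gene, blue in GV and red in MII, as RPKM plus 0.01 on a log axis. In CUL1, SCN9A, HNRNPF, SMG5 and TTC9C the circles lie above the triangles in every library, and in WTAP, SERINC1 and PTTG1 below them.

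Ribosomal proteins accounted for 20 of the 35 copies that fell. Of the 28 tested ribosomal copies 20 fell and none rose, and the median log2 change of the 28 was -1.70. Of the multi-exon genes of all 40 ribosomal symbols, 36 were tested, and 22 of these fell and none rose, with a median of -1.26. The medians cover unlike sets of symbols, since genes whose copies were not tested enter the latter. The count of copies was 13 when MII15c was left out, 12 with both untitled columns left out and 15 after quantile normalization, and none rose under any scaling tried. With library weights 21 fell and 3 rose. Of the 72 tested copies of other symbols, 15 fell and 12 rose. Among all tested entries 26.9% fell and 13.4% rose. In the 26 ribosomal pairs with both entries tested the copy was below the multi-exon gene every time, at a median of 5.60% of its mean RPKM (range 0.463 to 61.7%). Both entries fell in 13 of these pairs, the copy alone in 6, the multi-exon gene alone in 4 and neither in 3. The filter on mean level admits copies that are high in either stage, so these counts do not describe the 44 ribosomal copies that were not tested.

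RPS4X, a protein of the small ribosomal subunit, had 5 copies, all on other chromosomes than its 7-block gene at chrX:83532090-83536431. The gene had 340, 482 and 465 RPKM in GV and 64.1, 34.0 and 42.6 RPKM in MII. The copy at chr23:10528536-10529327 (ENSBTAG00000025617), of the same 792 coding nt, had 259, 250.5 and 239.6 RPKM in GV and 19.9, 8.74 and 17.4 RPKM in MII, the largest fall of any tested copy (log2 change -4.01 ± 0.29; limma adjusted p = 3.03e-05). Its mean was 0.582 of that of the gene in GV and 0.327 in MII, and the difference between the 2 changes, -0.82 ± 0.24, did not pass the test of pairs (limma adjusted p = 0.0904).

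The other RPS4X copies were low. The copy on chromosome 9 (chr9:42351250-42352038) had 6.95, 17.0 and 10.2 RPKM in GV and 0.369, 1.03 and 1.70 RPKM in MII and fell by 2.58 ± 0.40 on the log2 scale (limma adjusted p = 0.00134). On chromosome 10 (chr10:92889961-92890752) the values were 2.03, 2.21 and 1.80 RPKM, then 1.39, 0.089 and 0.043 RPKM, and on chromosome 7 (chr7:23580042-23580833) 0.231, 1.61 and 1.15 RPKM, then 0.606, 0.089 and 2.92 RPKM. The chromosome 10 copy fell by 1.11 ± 0.38 (limma adjusted p = 0.0429), lost under 11 of its 16 alternatives; with 1 library left out at a time the call held only for MII14c. The chromosome 7 copy had overlapping stages and did not pass (limma adjusted p = 0.994). The fifth, on chromosome 8, had a mean of 0.833 RPKM and was not tested.

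**Figure D4:**
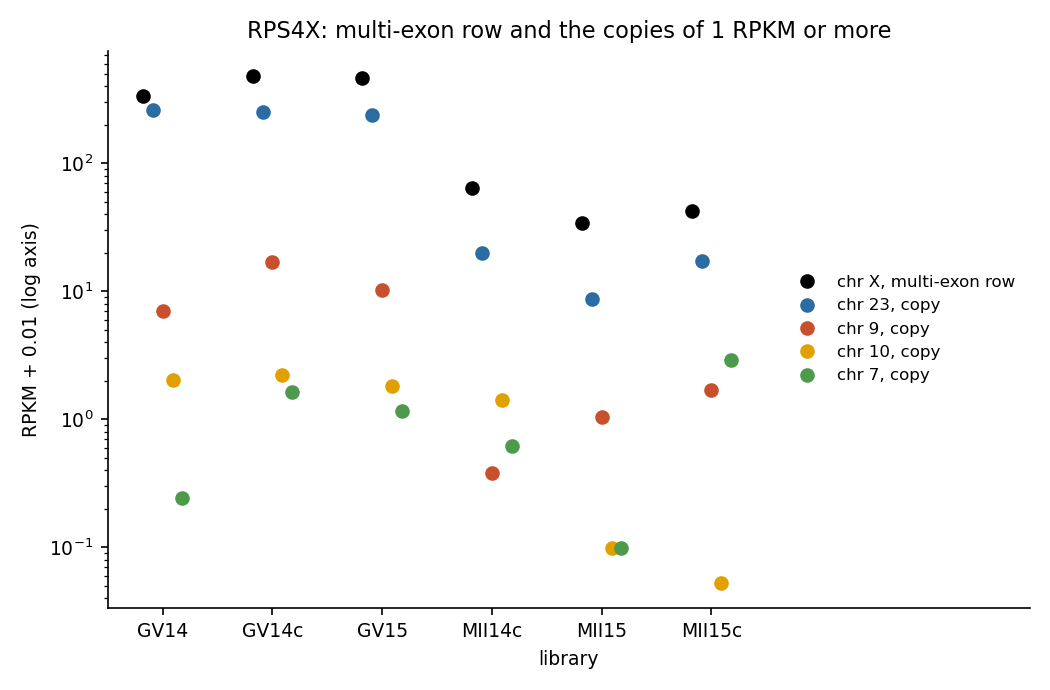
RPS4X in the 6 libraries. Points are RPKM plus 0.01 on a log axis, with the multi-exon gene in black and each copy with a mean of at least 1 RPKM in its own colour, shifted sideways so that points do not hide each other. The multi-exon gene and the copy on chromosome 23 are high in GV and low in MII, and the copy on chromosome 7 overlaps between the stages.

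Other ribosomal copies with large falls were lower in GV. RPS13 had a copy at chr13:22813838-22814293 with 29.8, 59.6 and 33.4 RPKM in GV and 4.21, 1.56 and 6.01 RPKM in MII (log2 change -3.14 ± 0.42; limma adjusted p = 0.000599). RPS6, whose protein is phosphorylated downstream of mTOR, had a copy at chr1:84033102-84033851 with 15.9, 41.0 and 24.0 RPKM in GV and 3.21, 1.30 and 2.55 RPKM in MII (-3.00 ± 0.40; 0.000562), at 61.7% of the mean of its 4-block entry. RPL21 had a copy at chrX:39983848-39984330 with 9.74, 37.8 and 14.3 RPKM in GV and 3.27, 0.717 and 2.50 RPKM in MII (-2.65 ± 0.52; 0.00398), and GV14c was the highest GV library in all 3 of these copies.

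FAU, the source of ribosomal protein S30, had a copy at chr5:47736754-47737146 with 10.1, 9.96 and 15.3 RPKM in GV and 0.187, 1.74 and 0.239 RPKM in MII (log2 change -2.98 ± 0.40; limma adjusted p = 0.000622). RPS3A had a copy at chrX:126048949-126049743 with 9.72, 17.5 and 10.1 RPKM in GV and 0.037, 0.109 and 0.142 RPKM in MII (-3.57 ± 0.33; 8.33e-05). The 8-block RPS3A entry that the rule pairs with it was at 0, while a 6-block entry on chromosome 17, named RS3A_BOVIN, had 167 ± 35.4 RPKM in GV and 25.6 ± 3.84 RPKM in MII (SD, n = 3). RPL6 had a copy on chromosome 15 with 9.41, 24.5 and 2.24 RPKM in GV and 0.936, 2.13 and 1.03 RPKM in MII; its fall of 2.04 ± 0.65 (limma adjusted p = 0.033) was lost without GV14, GV14c, MII14c or MII15c, and was 1.33 without GV14c.

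The choice of multi-exon gene mattered for few tested copies. In 69 copies of 19 symbols another entry with 3 or more blocks had a higher mean than the entry with the most blocks, and 4 of those copies were tested. EEF1A1, the elongation factor that brings aminoacyl-tRNA to the ribosome, had 2 tested copies, both on chromosome 7, beside a 9-block entry at 0 and a 7-block entry named EF1A1_BOVIN at 704 ± 343 RPKM in GV and 275 ± 114 RPKM in MII (SD, n = 3). One of these copies, at 2.47 ± 0.314 RPKM in GV and 0.631 ± 0.405 RPKM in MII, fell (limma adjusted p = 0.02), and the other, at 1.76 ± 0.706 and 0.815 ± 0.352 RPKM, did not pass.

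Outside the ribosome, 15 tested copies fell. COX6A1, a subunit of cytochrome c oxidase, had a copy at chr5:65648267-65648596 with 4.12, 7.63 and 7.68 RPKM in GV and 0.057, 0.084 and 0.165 RPKM in MII (log2 change -2.72 ± 0.33; limma adjusted p = 0.000345). Its 3-block gene of the same 330 coding nt fell from 912 ± 84.6 to 43.5 ± 5.41 RPKM. Of the 8 copies of respiratory chain and ATP synthase subunits 3 were tested and 2 fell, COX6A1 and ATP5I, while 5 of their 6 multi-exon genes fell. Of 3 tested copies of cell cycle proteins 2 rose, CUL1 and PTTG1, both calls being lost with both untitled columns left out; 13.4% of all tested entries rose. Of 7 tested copies of chromatin and nuclear proteins 1 fell, the copy of PTMA. Beside these counts of falls, 26.9% of all tested entries fell.

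A pair of falls outside these groups was named after the values were seen. NEDD8, the ubiquitin-like modifier of cullins, had a copy on chromosome 9 with 33.5, 42.0 and 35.5 RPKM in GV and 5.86, 4.02 and 6.74 RPKM in MII (log2 change -2.56 ± 0.27; limma adjusted p = 0.000168), and its 4-block gene changed by -3.05. YWHAH, a 14-3-3 protein, fell from 17.5 ± 3.36 to 6.19 ± 2.36 RPKM in the 1-block entry on chromosome 17 (-1.40 ± 0.32; 0.00845), and its 4-block entry on chromosome 1 was listed at 0 in all libraries.

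Whether a copy and its multi-exon gene changed by different amounts was tested as the difference of log2(RPKM + 1) between the 2 entries in each library, MII minus GV, fitted with limma over all 571 pairs of tested entries that share a symbol. Of the 79 pairs of copy and multi-exon gene 8 passed, 10.1%, against 12.4% of all such pairs; 21 had an unadjusted p under the same 0.05. The count was 4 without GV14c, 3 without GV15, 2 without MII14c, 15 without MII15, 3 without MII15c, 0 with both untitled columns left out and 2 with a pseudocount of 0.1. By their own stage tests both entries fell in 23 pairs, both rose in 4, the copy alone passed in 11, the multi-exon gene alone in 11 and neither in 30. In no pair did the 2 entries pass in opposite directions. The median SE of a difference was 0.35 on the log2 scale.

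In 3 pairs the copy fell more. The RPS13 copy on chromosome 13 changed by 2.07 ± 0.35 more than its 6-block gene, written as -2.07 on the log2 scale (limma adjusted p = 0.0248); GV over MII means were 10.4 in the copy and 2.18 in the gene, at 448, 798 and 422 RPKM in GV and 308, 216 and 241 RPKM in MII. For RPL21 on the X chromosome the difference was -1.71 ± 0.16 (0.0113), with GV over MII means of 9.54 in the copy and 2.16 in the 5-block gene, which had 84.9, 308 and 134 RPKM in GV and 94.4, 54.1 and 95.2 RPKM in MII. DYNLT1, a dynein light chain, had a copy at chr1:137783209-137783550 with 2.39, 4.97 and 3.88 RPKM in GV and 0.652, 0.572 and 0.457 RPKM in MII, and differed from its 5-block gene by -0.83 ± 0.12 (0.0184; GV over MII means of 6.69 and 1.70). The call was lost without MII15c for RPL21 and without each library but MII15 for DYNLT1. For RPS13 it was lost without GV14, GV14c, GV15 or MII14c, and with a pseudocount of 0.1 (-2.39; limma adjusted p = 0.0541).

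In 5 pairs the copy changed less on this scale: FAU (1.99 ± 0.29), COX6A1 (1.64 ± 0.22), CCDC167 on chromosome 17 (2.20 ± 0.21) and RPS4X on chromosomes 10 (2.09 ± 0.24) and 7 (3.19 ± 0.55). All 5 copies were at 0.463 to 1.12% of the mean of the multi-exon gene, where the pseudocount compresses the copy's change most. With a pseudocount of 0.1 none of the 5 calls remained, and the COX6A1 difference turned to -0.62, as its GV over MII means, 63.5 in the copy and 21.0 in the gene, also show. The ratio of means was smaller in the copy for FAU (16.3 and 31.6), CCDC167 (5.19 and 9.65) and RPS4X on chromosome 10 (3.96 and 9.15) and on chromosome 7 (0.829 and 9.15). Leaving out 1 library ended the call of RPS4X on chromosome 10 without MII14c, of the chromosome 7 copy without GV14, GV15 or MII14c, of COX6A1 without GV15, MII14c or MII15c, and of FAU without GV14, GV14c, MII14c or MII15c. The CCDC167 copy had 1.36, 1.64 and 2.52 RPKM in GV and 0.327, 0.319 and 0.417 RPKM in MII, and its own fall was called (limma adjusted p = 0.0209) and lost without MII14c or MII15c (0.0568 and 0.0632).

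**Figure D5:**
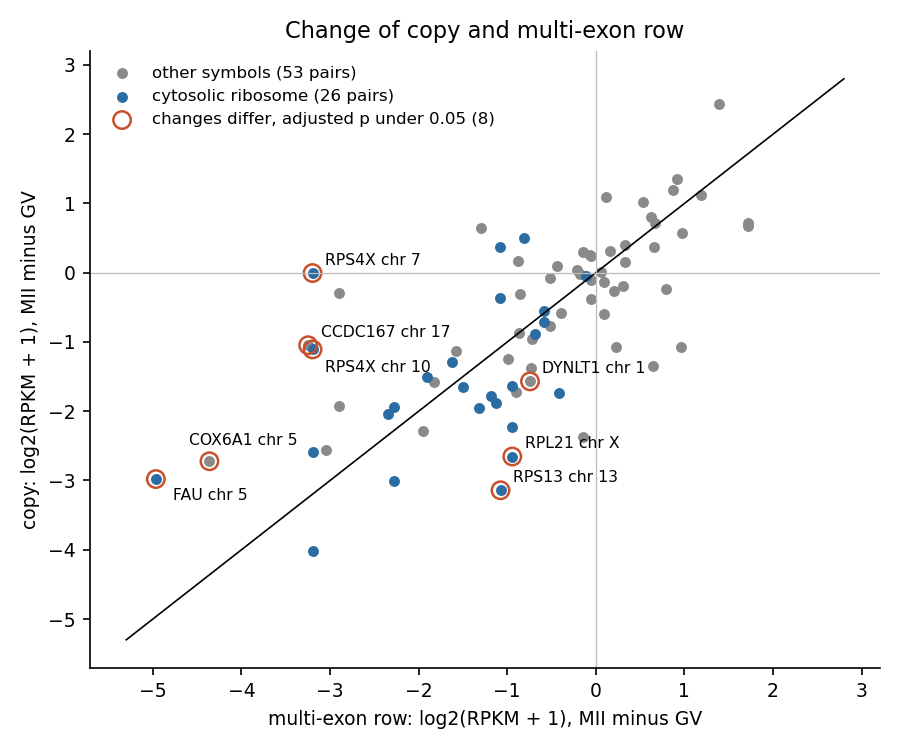
Change of the copy against change of the multi-exon gene in the 79 pairs with both entries tested. Axes are log2(RPKM + 1), MII minus GV, the diagonal marks equal change, blue points are ribosomal pairs and red rings mark the 8 pairs whose changes differed. RPS13, RPL21 and DYNLT1 lie below the diagonal and the other 5 ringed pairs above it.

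A further pair of symbols, named after their values were seen, had a large difference that did not pass. CSTB, which encodes the cysteine protease inhibitor cystatin B, had a copy on chromosome 8 with 13.9, 13.1 and 25.8 RPKM in GV and 12.3, 6.40 and 5.15 RPKM in MII, and a 3-block gene on chromosome 1 with 4.33, 5.81 and 3.22 RPKM in GV and 8.49, 8.37 and 11.6 RPKM in MII. The gene rose (log2 change 0.96; limma adjusted p = 0.035), the copy changed by -1.07 ± 0.38 (0.0502) and the difference was -2.03 ± 0.61 (0.0934). ST6GAL1, a sialyltransferase, had a 354-nt entry on the X chromosome that fell from 10.5 ± 4.69 to 1.15 ± 0.70 RPKM (0.0023), beside a 5-block gene at 7.12 ± 1.42 and 7.29 ± 5.03 RPKM, with a difference of -2.23 ± 0.82 (0.148).

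Some copies differed between libraries of the same stage more than between the stages. With the letter c of the column names as a term beside the stage, 10 tested copies were higher in the columns ending in c, against 5.73% of all tested entries, and 1 was lower, UTP14A, against 1.56%. Those 10 included TPM3 (log2 effect 1.58, limma adjusted p = 0.0229), RPL21 on the X chromosome (1.38, 0.0244) and RPS13 (1.07, 0.036). The RPL21 and RPS13 copies were also among those that fell more than their multi-exon gene. All 3 columns ending in c were above all 3 others in 10 of the 100 tested copies and in 10.4% of all tested entries. This pattern without overlap was about as frequent in the copies as elsewhere. The following copies were chosen from it. RPS23 on chromosome 11 had 0.584, 42.9 and 0.768 RPKM in GV14, GV14c and GV15 and 12.0, 0.548 and 12.4 RPKM in MII14c, MII15 and MII15c, while its multi-exon gene ran from 248 to 355 RPKM in GV and from 128 to 158 RPKM in MII.

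RPL15 on chromosome 2 had 0.044, 4.04 and 0.197 RPKM, then 3.45, 0.125 and 2.61 RPKM, in the same order. Its multi-exon gene had 8.01, 4.05 and 9.81 RPKM, then 1.25, 11.0 and 2.37 RPKM, and was low in each library where the copy was high. A short CDO1 entry of 168 nt, 1465 nt from the 4-block gene of cysteine dioxygenase on chromosome 10, had 21.7, 85.5 and 2.54 RPKM, then 63.1, 3.94 and 36.2 RPKM. What the letter stands for is not stated in the sources used here.

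Of the 5 symbols with most copies, 4 had no copy whose mean reached 1 RPKM. OR7A10 had 20 copies, 16 at 0 and the highest at 0.017 RPKM. HIST1H2BO, a replication-dependent histone H2B whose mRNA normally ends in a stem-loop without a poly(A) tail, had 16 copies, 12 at 0 and the highest at 0.598 RPKM. OR7A17 had 9 copies, 8 at 0, and all 9 copies of OR9K2 were at 0. MAGEB3 had 9 copies, 5 at 0 and 2 tested: the copy at chrX:119253545-119254582 had 23.9, 16.1 and 31.9 RPKM in GV and 14.9, 27.4 and 13.01 RPKM in MII, and the one at chrX:119164233-119165237 had 3.57, 1.93 and 1.61 RPKM, then 4.54, 2.10 and 2.34 RPKM. Neither differed beyond the spread of its stages (limma adjusted p = 0.418 and 0.639). Of the symbols fixed by name, TMSB4X, CCNB1, RPL7, BTG4 and UBB had no copy under the rule.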

How the data were processed

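RNA-seq values of 6 single-oocyte libraries, 3 GV and 3 MII, were used as deposited: RPKM per gene model, computed by the authors, per the file headers. DESeq is named, with no role, in the submitters' processing notes. Which aligner, counting rule and genome build were used is not given in the sources used here. Coding blocks, lengths, positions and supporting reads came from the deposited annotation. RefSeq symbols (ARS-UCD2.0) could not be tied to its identifiers, so gene symbols are those of the table. Entries without a usable symbol (417) or coding sequence (846) could not be members.

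Entries with a mean of at least 1 RPKM were tested with limma 3.58.1 in R 4.3.3 (lmFit, eBayes with trend) on log2(RPKM + 1), with Benjamini-Hochberg adjustment at 0.05. Pairs of entries were tested on the per-library difference of these values. RPKM are not counts, so no count model was run. Read depth was the value at which low RPKM of coding-only models became whole reads, within 0.1 of a read for 90.4 to 96.3% of them. Tested on simulated data, the stage test (8400 entries) recovered 62.0% of changes of 2 and 8.25% of changes of 1 on the log2 scale with 4 of 74 calls false, and the pair test (524 pairs) 60.5% and 5.26% with 1 of 55 false. The simulation changed only 100 entries by each size and drew noise separately for each entry. In the real data 40.3% of tested entries were called, so these shares need not hold for the real tests.

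Named copies were the 10 of highest mean, the 8 that rose and 8 that fell most among those past the threshold, up to 8 pairs per direction past the test of pairs, the 5 symbols with most copies and 8 fixed symbols, plus those marked as chosen later. Members, lists and rules were chosen with earlier results of these data known. Alternatives varied the pseudocount, filter, scaling, weights, model terms, libraries, block merging and multi-exon gene. Figures were drawn with matplotlib 3.10.9.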

Additional observations from a re-analysis of the deposited data

How the results depend on the processing

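The count of copies called between the stages (47; 35 lower, 12 higher) ranged from 31 to 43 when 1 library was left out at a time, with 22 to 33 lower and 8 to 14 higher. It was 23 without both untitled columns, with 18 lower and 5 higher. Of the copies called lower, 22 were left with a filter of 5 RPKM, which tests fewer copies. With library weights 21 were higher. The other alternatives kept each of these counts within 1.5 times its value.

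The count of pairs whose changes differed (8) was 2 and 4 with pseudocounts of 0.1 and 0.5, 38 with no filter on low values (223 pairs tested), 4 with a filter of 5 RPKM (42 pairs tested), 4 with TPM scaling, 33 with library weights, 0 without both untitled columns, and 2 to 15 with 1 library left out. With the number 14 or 15 of the column names as a replicate block it was 5, and 44 copies were called between the stages. The numbers were not taken as pairs, since deviations of same-numbered libraries correlated at -0.01, 0.33, 0.43 and -0.23. The cause of these shifts was not tested.

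The median log2 level of copy minus multi-exon gene (-3.03) was -3.29, -3.20 and -3.23 with pseudocounts of 0.1 and 0.5 and TPM scaling, and -3.24 with blocks under 20 nt apart merged, which removes 42 of the 510 copies. In fits added after the data were seen, it was -3.32 without copies within 1 Mb and -3.29 without copies that overlap another gene model. With 1 library left out it ranged from -3.13 to -2.89.

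Directions turned for these changes: ATP5L with median-ratio scaling (0.0147), CALM2 without both untitled columns (-0.000106), MAGEB3 on the X chromosome (ENSBTAG00000034437) with library weights (-0.12) and without MII14c (-0.0239; 1 library left out, -0.0239 to 0.48), SERF2 with the letter c as a term (-0.0288), without GV15 (-0.17) or MII15c (-0.013; range -0.17 to 0.31), TPM3 without MII15 (0.15; range -1.06 to 0.15), and the COX6A1 difference with a pseudocount of 0.1 (-0.62). For RPS4X on chromosome 7, near 0, it turned with median-ratio scaling (0.0815), quantile normalization (0.39), TPM scaling (0.0018) and library weights (1.16), and without GV15 (0.08), MII14c (0.12) or MII15 (0.40; range -0.32 to 0.40). None of these passed the test except RPS4X with library weights (limma adjusted p = 0.018). Depth limits copies near the value of 3 reads, and 50-nt reads cannot separate copies that are identical over a read.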
